A study of Homo sapiens with 8 samples.

Results

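The E2F family, MYBL2 and RBL1 were followed through HER2 and BET bromodomain inhibition in the 2 human breast cancer cell lines of the series. The set holds 10 genes (E2F1 to E2F8, MYBL2 and RBL1), taken by symbol from the 20531 genes listed in each of the 8 deposited gene tables. These 10 genes were chosen with earlier results of these data known. Messenger RNA was sequenced from SKBR-3, a HER2+ line without hormone receptors, and from BT474m1, a HER2+ line that carries them and descends from BT474. Each line was grown with DMSO (the drug vehicle), 300 nM lapatinib (a kinase inhibitor of HER2 and EGFR), 300 nM JQ1 (a compound that displaces BET proteins from acetylated chromatin) or 300 nM of each together, called both drugs here. All cultures were labelled as treated for 48 h in medium with serum, and the DMSO cultures are the common control of a line. Each of the 8 groups held 1 library, so no difference could be set against a spread between cultures and no p-value is given. The 2 lines repeat each comparison once in a different genetic background, and they are not replicates of each other.

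E2F proteins decide when the genes of DNA synthesis are read. E2F1, E2F2 and E2F3 act mainly as activators, and they are held in check by the retinoblastoma protein RB1 until cyclin-dependent kinases release them. E2F4 and E2F5 act mainly as repressors, bound to the RB1 relatives p107 (RBL1) and p130 (RBL2) together with the MuvB complex. E2F6 works with Polycomb proteins and does not bind RB1. E2F7 and E2F8 need no DP partner (TFDP1 or TFDP2) and repress E2F targets late in S phase. MYBL2 (B-MYB) replaces the repressor on MuvB when cells enter the cycle, and with FOXM1 it drives the genes of mitosis. Several of these genes, among them E2F1, E2F2, E2F7, E2F8, MYBL2 and RBL1, are known as E2F targets themselves.

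The deposited values are read counts that the authors brought to an upper quartile of 1000 in each library, called normalised read counts here. They are not divided by transcript length. Depth ran from 21420113 to 34112379 reads on genes, so 1 read was worth 0.471 to 0.766 units. Log2 differences are of value + 1, and a gene was called at 2-fold or more. The 95% intervals are exact Clopper-Pearson intervals on the reads and cover counting error only, as no molecular identifiers mark which reads are PCR copies of one molecule. Fold values are ratios of the normalised read counts without the added 1. The intervals of log2 differences also leave out the added 1, so at few reads a log2 difference and its interval can part. All 10 genes passed the filter of 10 or more units in at least 1 library, as did 14429 genes in all. The epithelial markers EPCAM, KRT8, KRT18, KRT19 and ERBB2 were abundant in the 8 libraries, while CDH1 lay between 2.58 and 15.1 units in SKBR-3 against 19413.5 to 24373 in BT474m1. Of these 6 epithelial markers, 3 (KRT8, KRT18 and KRT19) were called higher with JQ1 in SKBR-3, 1 (ERBB2, by 1.30 on the log2 scale) with lapatinib and 4 with both drugs, and 0 in BT474m1. Their part in the results was not tested. Of 6 markers of blood, endothelial and stromal cells, 2 to 5 were at 0 in each library. LUM was at 0 in all of them, and PTPRC, CD3E, PECAM1 and COL1A2 did not exceed 3.38 units. COL1A1 alone was higher. It read 124, 35.2, 81.2 and 24.1 units in SKBR-3 under DMSO, lapatinib, JQ1 and both drugs, and 1253, 1211, 394 and 337 in BT474m1, so it was lower with lapatinib in SKBR-3, with JQ1 in BT474m1 and with both drugs in each line. Its part in the results was not tested.

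Promoter windows of 300 bases, from 250 before to 50 after the RefSeq start on GRCh38.p14, were searched on both strands for short E2F words. The strict words were TTTCCCGC, TTTCGCGC, TTTGCCGC and TTTGGCGC. The core words were the same 4 words without their first T, and those shortened words again with G in place of C as their last base, which makes 8. A strict word holds a core word, so the counts overlap. Of 35116 promoters of 27305 genes, 23.7% held a core word and 3.31% a strict word. E2F5 and E2F8 had no entry. The sequences below are 80 bases long and end at the base before the start, except that of E2F7, which was taken 100 bases further upstream, where its matches lie. The first 6 belong to genes whose RNA fell with lapatinib in at least 1 line, and those of E2F4 and E2F6 to genes that were not called with lapatinib in either. Capitals mark bases inside a core or strict word on either strand. All are printed 5′ to 3′ on the strand of the gene.
E2F1: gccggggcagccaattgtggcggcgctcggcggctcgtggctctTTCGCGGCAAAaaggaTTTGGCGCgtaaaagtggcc
E2F2: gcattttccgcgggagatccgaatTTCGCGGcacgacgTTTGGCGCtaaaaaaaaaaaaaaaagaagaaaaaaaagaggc
E2F3: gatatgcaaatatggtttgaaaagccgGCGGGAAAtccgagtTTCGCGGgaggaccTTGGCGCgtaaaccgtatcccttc
E2F7: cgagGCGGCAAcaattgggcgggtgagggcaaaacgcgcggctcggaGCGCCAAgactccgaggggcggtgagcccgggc
MYBL2: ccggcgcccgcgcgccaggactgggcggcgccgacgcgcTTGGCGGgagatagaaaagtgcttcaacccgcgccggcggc
RBL1: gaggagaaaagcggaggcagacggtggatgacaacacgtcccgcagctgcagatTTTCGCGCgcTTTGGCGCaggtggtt
E2F4: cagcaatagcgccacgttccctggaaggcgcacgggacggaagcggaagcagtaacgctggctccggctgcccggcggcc
E2F6: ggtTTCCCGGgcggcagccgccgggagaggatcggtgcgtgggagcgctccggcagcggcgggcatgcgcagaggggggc

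These windows are chr20:33686386-33686465 for E2F1, chr1:23531234-23531313 for E2F2, chr6:20401799-20401878 for E2F3, chr12:77065670-77065749 for E2F7, chr20:43667034-43667113 for MYBL2, chr20:37095998-37096077 for RBL1, chr16:67192075-67192154 for E2F4 and chr2:11466162-11466241 for E2F6. In the full window, E2F1 held 3 core words, 2 of them within strict words, and RBL1 held 2, both within strict words. E2F2 held 2 core words and 1 strict word, and E2F3 held 3 and 1 at its first start and 0 at its second. E2F7 held 2 core words and MYBL2 1, with 0 strict words in either. E2F6 held 3 core words and 0 strict words, and E2F4 held 0 of both kinds. Core words thus stood before genes that fell and before E2F6, which was not called against DMSO with any drug. A match is a description of letters and not a binding site.

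By position in RefSeq on GRCh38.p14, 3 of the 10 genes lie on chromosome 20: E2F1 (chr20:33675477-33686385, minus strand), RBL1 (chr20:36996349-37095997, minus strand) and MYBL2 (chr20:43667114-43716482, plus strand). E2F2 lies at chr1:23505212-23531233 on the minus strand, E2F3 at chr6:20401879-20493714 on the plus strand and E2F4 at chr16:67192155-67198918 on the plus strand. E2F5 lies at chr8:85177154-85214518 on the plus strand, E2F6 at chr2:11444375-11466161 on the minus strand, E2F7 at chr12:77021251-77065569 on the minus strand and E2F8 at chr11:19224063-19241655 on the minus strand. These positions locate the genes and not the reads, because the build behind the tables is uncertain.

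In the DMSO cultures, MYBL2 RNA was the most abundant of the 10 per kilobase (kb) of transcript in both lines, at 2049 units per kb in SKBR-3 and 625 in BT474m1. Levels are compared between genes only on this scale, with the length of the MANE Select transcript. In SKBR-3 the order went on with E2F1 at 279, E2F4 at 213, RBL1 at 179 and E2F3 at 148 units per kb. E2F8 at 147 units per kb could not be told from E2F3, and the intervals of E2F7 at 101, E2F2 at 101 and E2F6 at 96.0 overlapped in turn. E2F5 was lowest at 17.9 units per kb. In BT474m1, E2F4 came second at 377, followed by E2F1 at 195 and E2F3 at 136 units per kb. There the intervals of E2F6 at 116, E2F5 at 114 and E2F2 at 108 overlapped in turn, and E2F8 at 63.4, E2F7 at 33.9 and RBL1 at 14.8 units per kb closed the order.

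The untreated lines differed most in RBL1 and E2F5. Of the 10 genes, 4 were at least 2-fold lower in BT474m1 than in SKBR-3, against 15.6% of all tested genes, and 1 was higher, against 26.8%. RBL1 measured 83.9 normalised read counts in BT474m1 and 1017 in SKBR-3, which is 12.1-fold lower (95% interval 10.4 to 14.2). E2F5 went the other way, with 223 in BT474m1 and 35.2 in SKBR-3, or 6.34-fold higher (4.74 to 8.73). MYBL2 was 3.28-fold, E2F7 2.98-fold and E2F8 2.32-fold lower in BT474m1. The 3 activators were close, with log2 differences of -0.52 for E2F1, 0.10 for E2F2 and -0.12 for E2F3. Scaling by the median of ratios lowered the median of all genes in this comparison from 0.21 to 0.06 on the log2 scale and turned the small difference of E2F2 to -0.05.

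**Figure D1:**
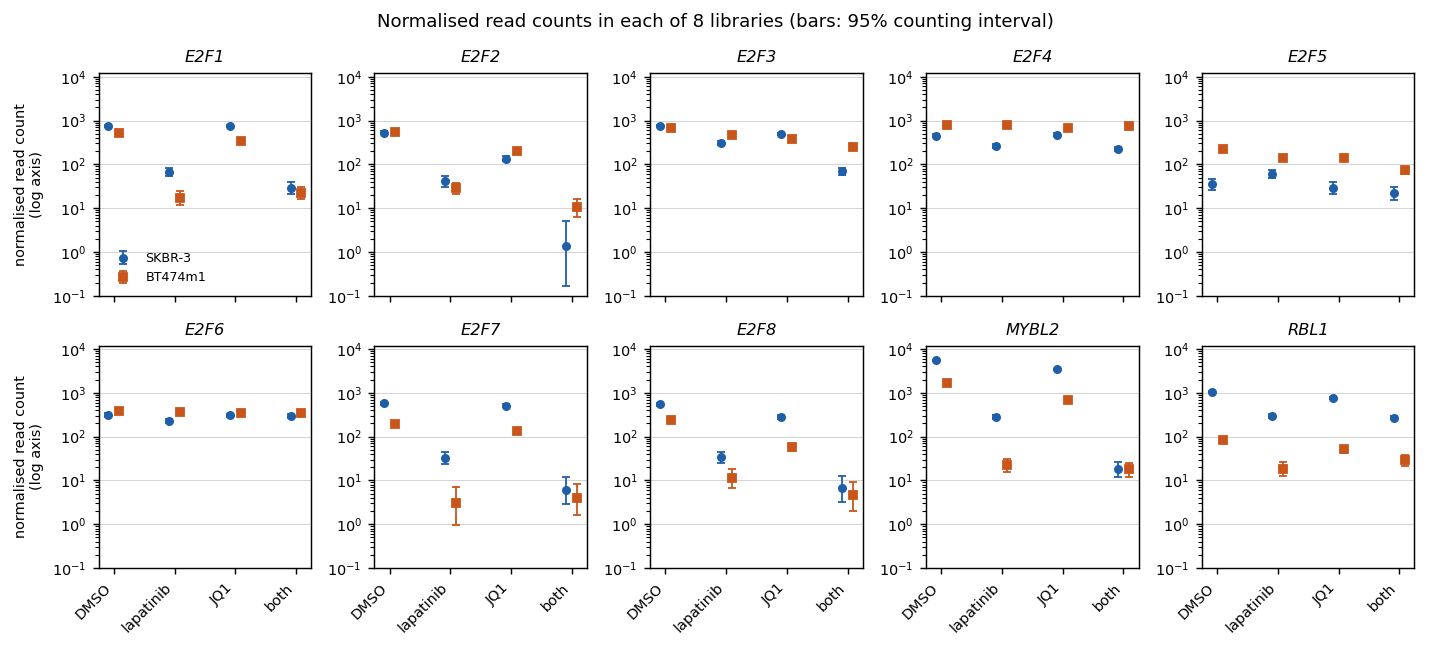
Normalised read counts of the 10 genes (log axis) under DMSO, lapatinib, JQ1 and both drugs. Each point is 1 library, circles are SKBR-3, squares are BT474m1, and bars are 95% counting intervals. E2F4 and E2F6 stay within 224 to 807 units in every library, whereas MYBL2 runs from 5467 down to 18.6 units (SKBR-3) and from 1669 down to 18.1 (BT474m1).

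Lapatinib lowered the RNA of E2F1, E2F2, the atypical repressors E2F7 and E2F8, MYBL2 and RBL1 in both lines and that of E2F3 in SKBR-3, and left E2F4, E2F5 and E2F6 within 2-fold. In SKBR-3, 7 of the 10 genes fell, against 9.44% of all tested genes, and 0 rose, against 11.1%. In BT474m1, 6 of the 10 fell, against 8.06% of all tested genes. The median log2 change of the 10 genes was -2.64 in SKBR-3 and -3.18 in BT474m1, where the medians of all genes were 0.05 and 0.07. In RNA from whole cultures, fewer cycling cells and less RNA per cell cannot be told apart.

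Among the activators, E2F1 in SKBR-3 read 752 units under DMSO, 66.6 under lapatinib, 736 under JQ1 and 29.6 under the pair. In BT474m1 it read 525, 17.5, 340.1 and 22.7 in the same order. The libraries with lapatinib were low in both lines, and with JQ1 alone E2F1 stayed near DMSO in SKBR-3 and was lower, by less than 2-fold, in BT474m1. Lapatinib lowered E2F1 by 11.3-fold (9.06 to 14.2) in SKBR-3 and by 30.1-fold (20.8 to 45.1) in BT474m1. The log2 changes of the lines differed by -1.36 (BT474m1 minus SKBR-3, -2.45 to -0.44), so the fall was deeper in BT474m1 beyond counting error.

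E2F2 read 523, 41.3, 134 and 1.38 units in SKBR-3 under DMSO, lapatinib, JQ1 and both drugs. In BT474m1 it read 559, 28.3, 202 and 10.5 units. E2F2 was thus lower in every treated library than in its DMSO library, in both lines. The fall with lapatinib was 12.6-fold (9.58 to 17.0) in SKBR-3 and 19.7-fold (14.8 to 27.0) in BT474m1. E2F2 was also the one gene of the 10 that JQ1 alone lowered by over 2-fold in both lines.

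E2F3 was lowered less. It read 745, 303, 490 and 68.8 units in SKBR-3 and 686, 469, 387 and 244 units in BT474m1. Lapatinib lowered it by 2.46-fold (2.19 to 2.77) in SKBR-3, and the ratio of 1.46 (1.34 to 1.6) in BT474m1 did not reach 2-fold. The log2 changes of the lines differed by 0.75 (0.41 to 1.09). With lapatinib, E2F3 at 60.2 units per kb in SKBR-3 and 93.1 in BT474m1 was therefore the most abundant activator, the place that E2F1 held with DMSO.

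The repressors E2F4 and E2F5 differed between the lines. E2F4 read 449, 264, 471 and 224 units in SKBR-3 and 795, 807, 677 and 737 units in BT474m1. No change of E2F4 against DMSO was called. In SKBR-3 the log2 change with lapatinib was -0.76 (-0.96 to -0.57), and with both drugs E2F4 stood at a log2 change of -0.998, just short of a call that it passes with equal totals (-1.09). In BT474m1 the change with lapatinib was 0.02 (-0.08 to 0.12). The lines differed by 0.78 (0.45 to 1.13) in this comparison.

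E2F5 read 35.2, 60.7, 29.2 and 22.3 units in SKBR-3, from 32 to 79 reads, and 223, 141, 138 and 73.9 units in BT474m1. The log2 change with lapatinib was 0.77 (0.25 to 1.33) in SKBR-3 and -0.66 (-0.90 to -0.44) in BT474m1, and neither was called. The only called changes of E2F5 against DMSO or lapatinib were falls with both drugs: 3.02-fold against DMSO in BT474m1, and 2.72-fold (1.80 to 4.28) against lapatinib in SKBR-3. Exons of E2F5 overlap those of RBIS on the other strand by 997 bases, and whether the counting used strand is not given in the sources used here. RBIS, listed under its older name C8orf59, read 461, 302, 408 and 285 units in SKBR-3 and 613, 647, 622 and 713 in BT474m1. Its part in the E2F5 values was not tested.

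E2F6, the Polycomb-linked member, was the steadiest. It read 309.95, 229, 304 and 294 units in SKBR-3 and 375, 357, 351 and 355 units in BT474m1. The log2 changes against DMSO lay between -0.44 and -0.03, and the interval of 5 of the 6 included 0, the exception being lapatinib in SKBR-3 at -0.44 (-0.65 to -0.22). Of 8 genes of the Polycomb complex in which E2F6 works (PCGF6, RNF2, RING1, L3MBTL2, MGA, YAF2, CBX3 and WDR5), 0 were called with lapatinib in either line. Of all tested genes, 9.44% fell and 11.1% rose in SKBR-3, and 8.06% fell and 14% rose in BT474m1. The changes of the 8 ran from -0.96 for CBX3 to 0.51 for RING1 in SKBR-3, and from -0.72 for L3MBTL2 to 0.45 for MGA in BT474m1. With equal totals CBX3 was called in SKBR-3, at -1.01. With both drugs 1 of the 8 fell against DMSO in each line, PCGF6 in SKBR-3 (-1.78) and L3MBTL2 in BT474m1 (-1.27). The shares of all tested genes that fell were 20.8% and 15.3%.

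The atypical repressors fell to a few reads. E2F7 read 579, 32.9, 512 and 6.19 units in SKBR-3 and 194, 3.01, 137 and 4.08 units in BT474m1. The value with lapatinib in BT474m1 rests on 5 reads, and the fall there was 64.5-fold with an interval from 27.4 to 199.7. In SKBR-3 it was 17.6-fold (12.9 to 24.5). E2F8 read 545, 33.7, 284 and 6.88 units in SKBR-3 and 235, 11.4, 57.0 and 4.66 units in BT474m1. Lapatinib lowered it by 16.2-fold (11.9 to 22.4) and 20.5-fold (13.0 to 34.4). For both genes the interval of the difference between the lines included 0.

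MYBL2 had the largest fall of the 10 genes with lapatinib in each line, with an interval that overlapped that of E2F7 in both lines and that of E2F8 in SKBR-3. It read 5467, 276, 3476 and 18.6 units in SKBR-3 and 1669, 22.3, 689 and 18.1 units in BT474m1. The fall was 19.8-fold (17.8 to 22.1) in SKBR-3 and 74.9-fold (54.2 to 106.5) in BT474m1, and the log2 changes of the lines differed by -1.86 (-2.67 to -1.21). With lapatinib alone, then, BT474m1 already read 22.3 units where SKBR-3 still read 276. With both drugs the 2 lines came to 18.1 and 18.6 units.

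RBL1, the p107 pocket protein, read 1017, 292, 767 and 273 units in SKBR-3 and 83.9, 18.7, 51.2 and 28.6 units in BT474m1. Lapatinib lowered it by 3.49-fold (3.11 to 3.91) and 4.49-fold (3.06 to 6.81), with no difference between the lines beyond counting error. Its relative RBL2, the p130 pocket protein of quiescent cells, moved the opposite way. RBL2 read 1169 units with DMSO and 2385 with lapatinib in SKBR-3, and 1625 and 4438 in BT474m1, so it rose by 2.04-fold and 2.73-fold. With libraries set to equal totals the log2 change in SKBR-3 was 0.97, short of a call. RB1 did not reach 2-fold, with log2 changes of 0.39 in SKBR-3 and -0.15 in BT474m1. Exons of RBL2 overlap those of AKTIP on the other strand by 609 bases, and AKTIP read 827 and 1271 units in SKBR-3 and 878 and 968 in BT474m1 in the same libraries. Its part in the RBL2 values was not tested.

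**Figure D2:**
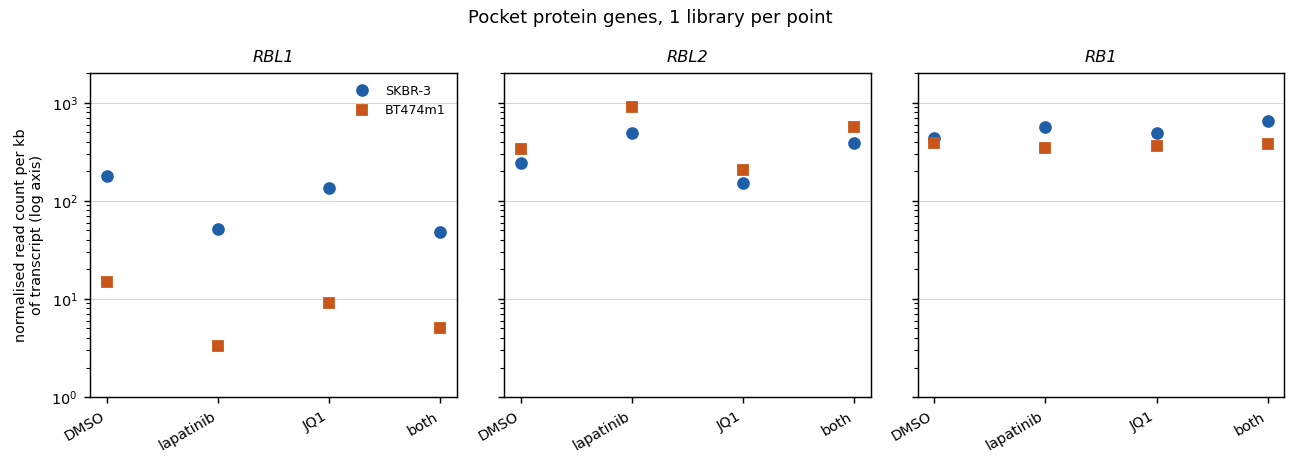
Level per kb of transcript (log axis) of the pocket protein genes RBL1, RBL2 and RB1 under the 4 treatments, 1 library per point, circles for SKBR-3 and squares for BT474m1. RBL1 drops and RBL2 climbs in both lapatinib libraries, while RB1 stays between 348 and 647 units per kb.

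Per kb, RBL1 made up 42.6% of the sum of RBL1 and RBL2 in SKBR-3 with DMSO and 9.46% with lapatinib. In BT474m1 the share was 4.22% with DMSO and 0.358% with lapatinib. JQ1 alone left the share at 47.1% and 4.16%. Both drugs gave 11.1% and 0.874%, lower than with DMSO in each line and higher than with lapatinib alone.

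The make-up of the E2F family shifted in the same libraries. The summed level of the 8 E2F genes was 1103 units per kb with DMSO and 335 with lapatinib in SKBR-3, and 1143 and 673 in BT474m1. The activators E2F1 to E2F3 held 47.9% of that sum in SKBR-3 under DMSO, 27.8% under lapatinib, 44.3% under JQ1 and 10.5% under the pair. In BT474m1 they held 38.4%, 15.6%, 31.0% and 10.6%. Between the DMSO and lapatinib libraries, the share of E2F4 and E2F5 went from 20.9% to 46.6% (SKBR-3) and from 42.9% to 67.5% (BT474m1). E2F7 and E2F8 together dropped from 22.5% to 4.43% and from 8.51% to 0.537%. With the longest coding transcript in place of the MANE Select transcript, a length chosen after seeing the data, the share of the activators with DMSO was 48.1% and 38.7%.

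**Figure D3:**
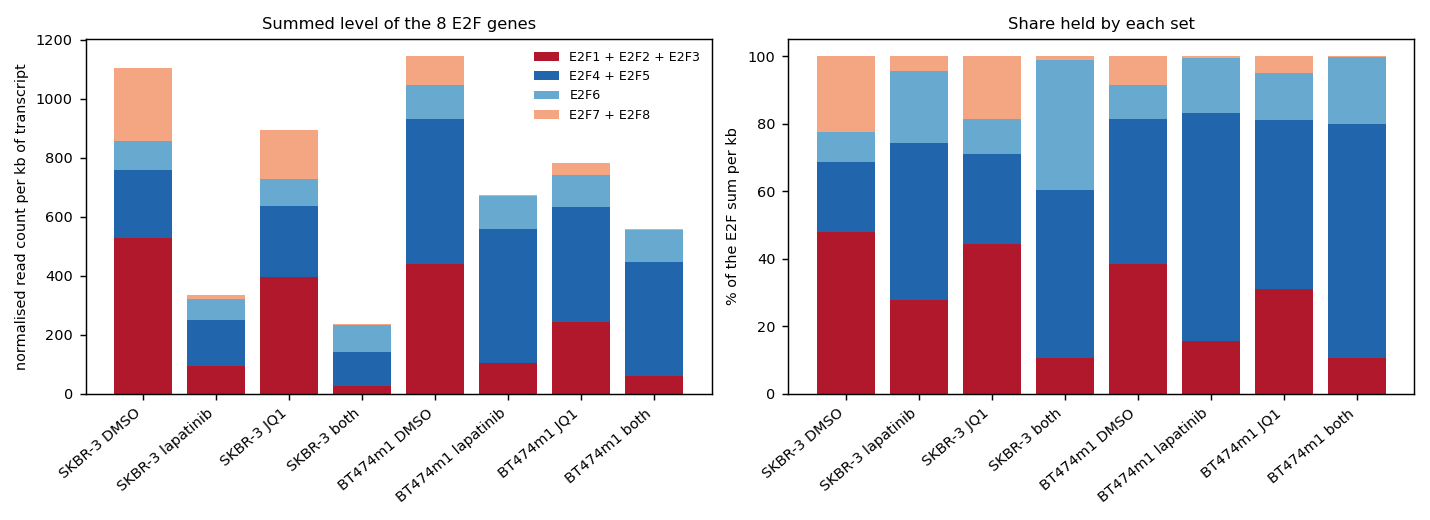
Left, summed level of the 8 E2F genes per kb of transcript in each library, stacked by activators (E2F1 to E2F3), repressors (E2F4 and E2F5), E2F6 and atypical members (E2F7 and E2F8). Right, the same as a percentage of the sum, where the activators of SKBR-3 fall from 47.9% to 10.5% between DMSO and both drugs and those of BT474m1 from 38.4% to 10.6%.

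The partners of these genes were read from lists that were chosen with earlier results of these data known. TFDP1, the main DP partner, read 5301 and 2571 units with DMSO and lapatinib in SKBR-3, a fall of 2.06-fold, and 2386 and 1584 in BT474m1, a log2 change of -0.59. TFDP2 changed by 0.05 and 0.10, and TFDP3 did not exceed 3.30 units in any library. Of the 5 genes of the MuvB core, lapatinib lowered 2 in SKBR-3, against 9.44% of all tested genes, and 3 in BT474m1, against 8.06%. LIN9, which contacts MYBL2 in that complex, fell in both lines (log2 changes of -1.81 and -1.73), and so did LIN52 (-1.01 and -1.30), whose change in SKBR-3 was -0.95, no longer a call, with 10 in place of 1 added before the logarithm. LIN54, the DNA-binding subunit, changed by -0.61 in SKBR-3 and by -1.23, a call, in BT474m1. LIN37 (0.02 and -0.15) and RBBP4 (-0.18 and -0.51) were not called.

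Of the other MYB genes, MYBL1 fell as MYBL2 did in SKBR-3 but was not called in BT474m1, and MYB was not called in either line. MYB read 391 and 720 units with DMSO and lapatinib in SKBR-3 and 1133 and 2186 in BT474m1, log2 changes of 0.88 and 0.95. MYBL1 read 201 and 22.2 units in SKBR-3, a 9.06-fold fall, and 255 and 178 in BT474m1, a log2 change of -0.52. FOXM1, which joins MYBL2 on MuvB, fell by log2 changes of -3.59 and -4.67.

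Lists of G1/S and G2/M genes, known as targets of E2F and MuvB complexes, were read next. These lists too were chosen with earlier results of these data known. Of 25 G1/S genes, 23 fell with lapatinib in each line, against 9.44% of all tested genes in SKBR-3 and 8.06% in BT474m1. The medians of the G1/S genes were -2.72 in SKBR-3 and -2.97 in BT474m1. The changes ran from -4.57 for UHRF1 to -0.85 for the histone mRNA binder SLBP in SKBR-3. In BT474m1 they ran from -7.09 for RRM2, a subunit of ribonucleotide reductase, to -0.87 for the cyclin gene CCNE1. All 20 G2/M genes fell in both lines, with medians of -3.52 and -4.53. PLK1, a mitotic kinase, changed most in SKBR-3 at -3.98 and AURKB, another, in BT474m1 at -5.53, and the cyclin gene CCNF changed least in both (-1.64 and -2.05). Of 31 promoters of 21 matched G1/S genes, 80.6% held a core E2F word, against 23.7% of all promoters. Of 20 promoters of 15 matched G2/M genes, 35.0% did. The words TTTGAA and CCAAT stood in 60.0% and 90.0% of these G2/M promoters, against 15.2% and 34.6% of all promoters. In the G1/S promoters the shares were 6.45% and 74.2%.

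Genes that bear on RB1 phosphorylation and on E2F1-linked cell death were less uniform. Of 11 tested genes for RB kinases, D cyclins and their inhibitors, 3 fell and 1 rose with lapatinib in SKBR-3, against 9.44% and 11.1% of all tested genes. In BT474m1, 4 fell and 1 rose, against 8.06% and 14% of all tested genes. CDKN1C, an inhibitor of cyclin-dependent kinases, was the one called higher, and in BT474m1 it rose by 4.39-fold (3.08 to 6.38) from 41 to 141 reads. In SKBR-3 it had 2 reads with DMSO and 12 with lapatinib, a ratio of 6.42 with an interval from 1.43 to 59.0, and that call is lost with 10 in place of 1 added before the logarithm. CDKN2D, an inhibitor of CDK4 and CDK6, fell most in SKBR-3 at -2.57 and its relative CDKN2C in BT474m1 at -3.23. Of 7 apoptosis genes known as E2F1 targets, 0 fell in either line and 1 rose in each, BCL2L11 in SKBR-3 (1.17) and BBC3 in BT474m1 (1.64). Of all tested genes, 11.1% rose in SKBR-3 and 14% in BT474m1, so 1 of 7 is near the share of all genes. With the median of ratios, TP73 (-1.04) and, just past 2-fold, the cyclin gene CCND1 were also called lower in BT474m1.

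**Figure D4:**
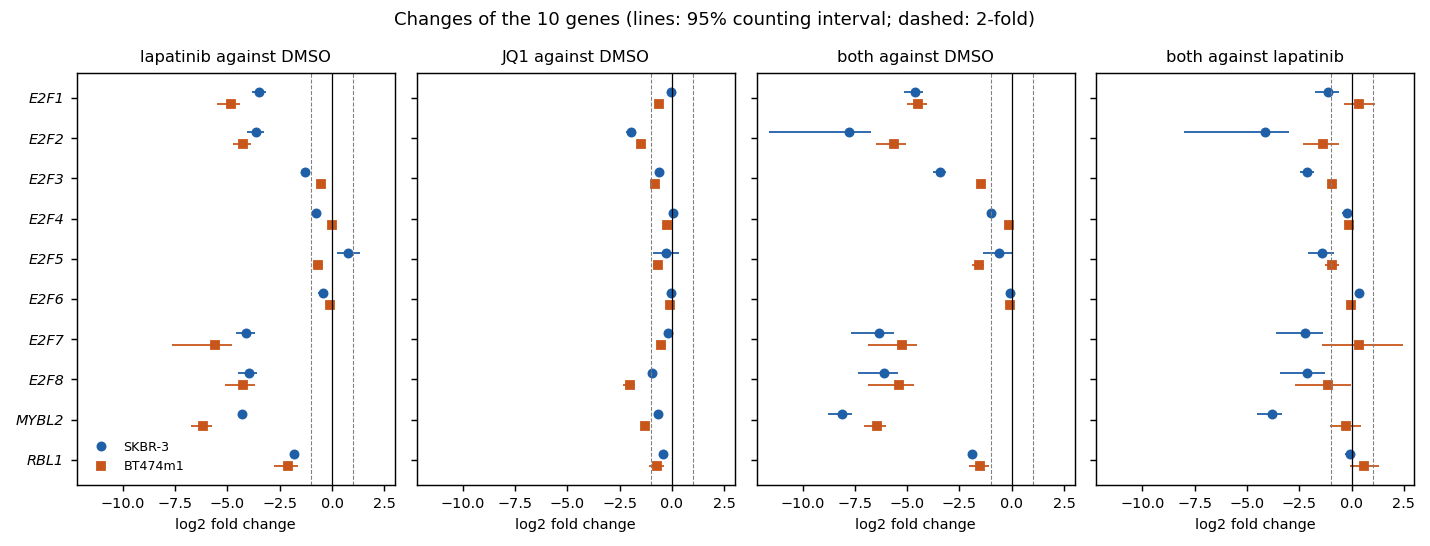
Log2 fold changes of the 10 genes in 4 comparisons, with circles for SKBR-3, squares for BT474m1, lines for 95% counting intervals and dashed lines at 2-fold. In the last panel, both drugs against lapatinib, MYBL2 lies at -3.82 in SKBR-3 and at -0.29 in BT474m1.

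JQ1 alone lowered E2F2 in both lines and E2F8 and MYBL2 in BT474m1. In SKBR-3, 1 of 10 fell, against 11.8% of all tested genes, and in BT474m1 3 of 10 fell, also against 11.8%. E2F2 fell by 3.90-fold (3.34 to 4.57) in SKBR-3 and 2.76-fold (2.47 to 3.10) in BT474m1. E2F8 fell by 4.12-fold (3.36 to 5.08) in BT474m1, and in SKBR-3 its log2 change was -0.94 (-1.11 to -0.77). The lines differed by -1.08 (-1.64 to -0.57) in E2F8. MYBL2 fell by 2.42-fold (2.28 to 2.58) in BT474m1 and had a log2 change of -0.65 in SKBR-3. E2F1 showed a log2 change of -0.03 (-0.15 to 0.09) in SKBR-3 and -0.63 (-0.77 to -0.49) in BT474m1. Changes under 2-fold but beyond counting error were also seen in both lines for E2F3 (-0.60 and -0.82), RBL1 (-0.41 and -0.70) and E2F7 (-0.18 and -0.50), and in BT474m1 for E2F4 (-0.23) and E2F5 (-0.69), all of them lower. Of the 25 G1/S genes, 0 fell in SKBR-3 (median -0.15) and 7 in BT474m1 (median -0.77). Of the 20 G2/M genes 4 fell in SKBR-3, a count that was 1 with the median of ratios, and 10 in BT474m1. These counts stand against the same 11.8% of all tested genes in each line. With libraries set to equal totals, E2F8 also passed 2-fold in SKBR-3, where that scaling moved the median of all genes from -0.08 to -0.22.

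Both drugs together lowered 7 of the 10 genes in SKBR-3 (E2F1, E2F2, E2F3, E2F7, E2F8, MYBL2 and RBL1), against 20.8% of all tested genes. In BT474m1, 8 of the 10 fell against DMSO, against 15.3% of all tested genes, and they included E2F3 at 2.81-fold (2.52 to 3.14) and E2F5 at 3.02-fold (2.48 to 3.70). The falls in SKBR-3 reached 294-fold (202 to 447) for MYBL2, 93.5-fold (49.0 to 205) for E2F7 and 79.2-fold (42.8 to 166) for E2F8. E2F2 was left with 2 reads, a ratio of 380 with an interval from 105 to 3142. In BT474m1, MYBL2 was 92.3-fold (64.9 to 136) and E2F2 53.3-fold (33.6 to 90.2) lower than with DMSO. Set against JQ1 alone, 8 of 10 genes were lower with both drugs in SKBR-3, against 12.3% of all tested genes, and 5 of 10 in BT474m1, against 7.27%. The comparisons against DMSO share their DMSO library with those above.

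The lines parted when JQ1 was added to lapatinib. In SKBR-3, 7 of the 10 genes dropped a further 2-fold or more, against 16.2% of all tested genes. In BT474m1, 2 of 10 did, against 12.5%. The median of the 10 log2 changes was -1.76 in SKBR-3 and -0.21 in BT474m1, where the medians of all genes were -0.11 and -0.02.

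MYBL2 went from 276 to 18.6 units in SKBR-3, a further fall of 14.8-fold (10.0 to 22.8). In BT474m1 it went from 22.3 to 18.1 units, 37 and 31 reads, with a log2 change of -0.29 (-1.04 to 0.43). The difference between the lines was 3.53 on the log2 scale (2.11 to 5.13). E2F3 went from 303 to 68.8 units in SKBR-3, or 4.41-fold lower (3.53 to 5.55), and from 469 to 244 in BT474m1, a log2 change of -0.94 (-1.12 to -0.77). E2F1 fell by 2.25-fold (1.55 to 3.33) in SKBR-3, a call that is lost with a pseudocount of 10 (log2 change of -0.95) and with the median of ratios (-0.99), and in BT474m1 it read 17.5 and 22.7 units with a log2 change of 0.36 (-0.35 to 1.13). E2F2 had the largest ratio in SKBR-3, at 30.1-fold lower (7.93 to 254), and it rests on 2 reads with both drugs. E2F7 fell by 5.32-fold (2.56 to 12.4) and E2F8 by 4.90-fold (2.43 to 10.9) in SKBR-3. In BT474m1, E2F7 stood at 5 and 7 reads, so that a further fall was not detectable at this depth. E2F2 and E2F8 were the called genes there, at 2.70-fold (1.54 to 4.94) and 2.45-fold (1.03 to 6.48), and both calls are lost with a pseudocount of 10 (-0.90 and -0.55).

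RBL1, E2F4 and E2F6 showed little further change. RBL1 read 292 and 273 units in SKBR-3 and 18.7 and 28.6 in BT474m1, log2 changes of -0.09 (-0.30 to 0.11) and 0.59 (-0.06 to 1.31). E2F4 changed by -0.24 and -0.13, and E2F6 by 0.36 and -0.01. RBL2 changed by -0.35 in SKBR-3 and -0.68 in BT474m1.

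Among the partners, FOXM1 fell further in SKBR-3, with a log2 change of -3.85 (-4.56 to -3.35), and changed by -0.85 (-1.20 to -0.52) in BT474m1. MYB changed by -0.51 (-0.66 to -0.37) in SKBR-3 and fell in BT474m1, by 5.13-fold (4.73 to 5.56). MYBL1 changed by 0.74 (0.09 to 1.47) in SKBR-3 and fell by 2.05-fold (1.67 to 2.51) in BT474m1, a call that is lost with a pseudocount of 10 (-0.95) and with the median of ratios (-0.99). Of the 5 genes of the MuvB core, 0 were called in either line, and the changes of LIN9 were -0.92 and -0.82.

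Between the lines, the changes of 4 of the 10 genes lay 2-fold or more apart with lapatinib against DMSO, against 21.9% of all tested genes, 1 with JQ1, against 15.9%, and 4 with both drugs against DMSO, against 30.3%. Set against lapatinib, both drugs put 6 of the 10 that far apart, against 20.4% of all tested genes, and set against JQ1 again 6, against 24.4%. Where the counting interval of the difference also had to leave out 0, an alternative chosen after seeing the data, these counts were 3 with lapatinib, against 11.7% of all tested genes, 1 with JQ1, against 6.27%, and 2 with both drugs against DMSO, against 18.3%. For both drugs they were 4 against lapatinib, where 9.59% of all tested genes passed, and 3 against JQ1, where 13.2% did. Without the interval rule, a pseudocount of 10 gave 2 genes with lapatinib and 0 with JQ1, and equal totals gave 0 with JQ1.

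The G1/S and G2/M lists also differed between the lines. Of the 20 G2/M genes, 19 fell when JQ1 was added to lapatinib in SKBR-3 (median -2.58), against 16.2% of all tested genes. In BT474m1 1 fell and 1 rose (median -0.13), against 12.5% and 5.2% of all tested genes. BIRC5, the survivin gene, changed most in both lines, at -3.60 and -1.25, and CCNF was the one that rose in BT474m1, by 1.02. Of the 25 G1/S genes, 10 fell in SKBR-3 (median -0.76) and 0 rose. In BT474m1, 3 of the 25 fell (median -0.04), near the 12.5% of all tested genes that fell, and 3 rose, against 5.2%. The extremes there were UHRF1 at -1.51 and the DNA clamp gene PCNA at 1.68. PCNA read 5381 units with DMSO, 848 with lapatinib and 2725 with both drugs in BT474m1, and 4300, 983 and 1783 in SKBR-3.

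Whether JQ1 did the same with lapatinib as without it was read from 4 separate libraries of a line, as the change on adding JQ1 to lapatinib minus the change with JQ1 alone. In SKBR-3 this difference was -1 or lower on the log2 scale for 7 of the 10 genes, against 7.58% of all tested genes. With 10 in place of 1 added before the logarithm it was so for 3 of the 10, MYBL2, E2F3 and E2F7, against 3.44% of all tested genes. In BT474m1, with 1 added, the difference was that low for 0 of 10, against 4.73%, and 1 of 10 reached 1 or higher, against 4.72%. In SKBR-3 the difference was -3.17 (-4.01 to -2.54) for MYBL2, -2.20 (-6.82 to -0.58) for E2F2, -2.06 (-3.80 to -0.89) for E2F7 and -1.52 (-2.07 to -1.01) for E2F3. It was -1.20 (-2.87 to -0.02) for E2F8, -1.11 (-1.92 to -0.39) for E2F1 and -1.14 (-2.61 to 0.21) for E2F5, the last with an interval that includes 0. E2F4 (-0.30), E2F6 (0.39) and RBL1 (0.31) had intervals that include 0. The value of E2F2 hangs on the 2 reads with both drugs and was -0.29 with the larger added value. In BT474m1 the difference was positive for RBL1 at 1.29 (0.15 to 2.53), E2F1 at 0.99 (0.02 to 2.01) and MYBL2 at 0.99 (0.03 to 1.90), and the intervals of the other 7 genes included 0.

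**Figure D5:**
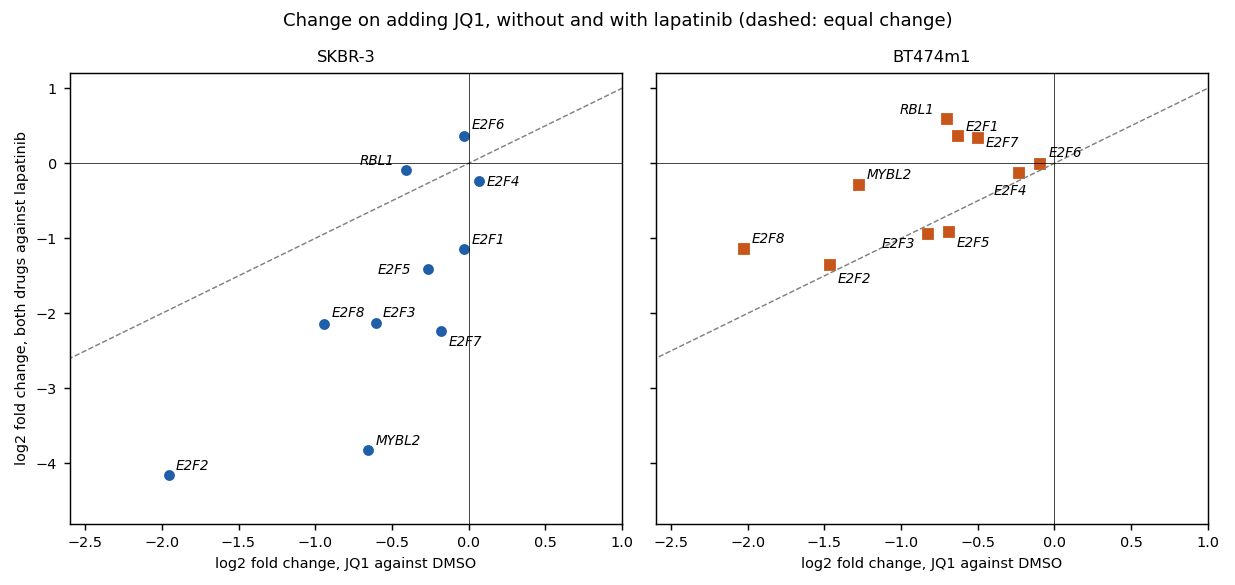
Log2 change on adding JQ1 to lapatinib (vertical) against the log2 change with JQ1 alone (horizontal) for the 10 genes, SKBR-3 left and BT474m1 right; on the dashed line both are equal. In SKBR-3, 7 genes lie 1 or more below the line, with MYBL2 at -3.17 and E2F2 at -2.20 (3 genes with 10 in place of 1 added before the logarithm), and in BT474m1 none does.

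Per kb, the order of the 10 genes with both drugs was led by E2F4, at 106 units per kb in SKBR-3 and 349 in BT474m1, with E2F6 next at 90.9 and 110. In SKBR-3 the intervals of these genes overlapped, and those of E2F3 at 13.7, E2F5 at 11.4, E2F1 at 11 and MYBL2 at 6.96 units per kb overlapped in turn. In BT474m1, E2F3 at 48.4 and E2F5 at 37.6 overlapped, as did E2F1 at 8.45, MYBL2 at 6.78 and RBL1 at 5.02 in turn. MYBL2, first with DMSO in both lines, was seventh of the 10 in SKBR-3 and sixth in BT474m1.

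Genes with the most similar course were found as those with the smallest root mean square difference over the 6 log2 changes against DMSO, among 11758 genes with 100 or more units in at least 1 library. For E2F1 these were SKA1 (0.14), FAM83D (0.22) and WDR62 (0.23). For E2F2 they were FOXM1 (0.35), KIF14 (0.49) and GTSE1 (0.54), and for E2F3 SERTAD4 (0.24), CD276 (0.25) and WDR67 (0.26). For E2F4 they were EXOSC3 (0.09), RBM25 (0.11) and ZNF542 (0.12), for E2F5 CKMT1B (0.17), GPR56 (0.27) and AP4M1 (0.28), and for E2F6 RPUSD1 (0.08), PLAA (0.08) and DDX27 (0.09). For E2F7 they were NEIL3 (0.23), ESCO2 (0.24) and CEP55 (0.26), and for E2F8 TRIP13 (0.31), ADORA1 (0.42) and ESPL1 (0.43). For MYBL2 they were MCM10 (0.24), CDC45 (0.40) and BIRC5 (0.49), and for RBL1 RFC2 (0.13), TMEM194A (0.18) and DBF4 (0.20). No member was among the 3 nearest genes of another. The closest pair of members was E2F4 and E2F6 at 0.41, and the next was E2F2 and E2F8 at 0.85.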

How the data were processed

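The tables hold 1 signal value per gene and library. Per the labels and the file headers, the authors estimated read counts with RSEM and deposited this signal after scaling each library so that the upper quartile of genes above 0 is 1000. The submitters' processing notes name hg19, Picard 1.88, SAMtools 1.2, R 3.2.2 and DESeq2 1.12.3 with no role, whereas the methods of the study name other tools and another build for its RNA sequencing in general, so the build behind these tables is uncertain. The labels name a stranded and an unstranded library kit, so whether counting used strand is not given in the sources used here. For the time of treatment, which the methods give as shorter in general, the labels were followed.

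The value of 1 read was recovered as the common step between values, and 83.3% to 84.6% of values above 0 were then whole reads (within 0.0001 units of a multiple). The rest are fractional estimates and were rounded. Rows with no gene symbol held 0.0208% to 0.0406% of the reads and were kept, since they carry an Entrez identifier. Computation used Python 3.11.15, scipy 1.17.1, numpy 2.4.6 and pandas 2.3.3, and figures matplotlib 3.10.9. Genes with 10 or more units in at least 1 library were kept (14429, with 6102 removed), and log2(value + 1) was compared between libraries. The pseudocount and the 10 of the filter are those of the study's methods, which state the filter in reads, whereas here it was applied to units. A change was called at 2-fold or more. Intervals of differences between comparisons add the bounds of their parts and hold at least 95%. The floor was 3 reads (1.41 to 2.30 units). Genes were named by rule: the 10 members, all genes of the partner, MuvB and MYB lists, the members with the smallest and the largest change of the other lists, and the 3 nearest genes of each member. The members and gene lists were chosen with earlier results of these data known. Positions and promoters are those of RefSeq on GRCh38.p14 and were matched by Entrez identifier for 20372 of 20531 genes. Transcript lengths and overlaps are those of GENCODE 44. The processed pseudogenes of E2F3, E2F4 and E2F6 are not listed in the tables, and reads shared with them are uncertain. The recovery of the value of 1 read, and the calls and intervals of a single comparison, were tested on simulated data with counting error only. No change was planted in genes of few reads. Fractional values, PCR copies and differences between comparisons were not simulated.

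Alternatives were no filter, a filter at 100, a pseudocount of 10, equal library totals, median-of-ratios scaling, calls that also need an interval without 0, and, chosen after seeing the data, the longest coding transcript, intervals without 0 for differences between the lines, and the pseudocount and scalings for the genes of the smaller lists.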

Additional observations from a re-analysis of the deposited data

Results flagged for a closer look

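In 2 of the comparisons of single members, the log2 changes of the lines had opposite signs and both counting intervals left out 0. With lapatinib, the log2 change of E2F5 was 0.77 for SKBR-3 and -0.66 for BT474m1, and neither reached 2-fold. The SKBR-3 values rest on 49 and 79 reads, and E2F5 shares 997 exonic bases with RBIS on the other strand, which read 461 and 302 units in those libraries. E2F4 was lower with both drugs than with JQ1 in SKBR-3, at -1.07, and read 0.12 in BT474m1. With 1 library per group, neither difference was tested against a spread between cultures.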

How the results depend on the processing

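With 1 library per group, each value holds for these cultures only, and the intervals cover counting error alone. No paired analysis was possible because the groups hold 1 library each and the labels carry no replicate numbers. Depth limits E2F2, E2F7 and E2F8 with both drugs in SKBR-3, E2F7 and E2F8 with both drugs in BT474m1 and E2F7 with lapatinib in BT474m1, at 2 to 10 reads.

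Of the called log2 changes of members and of genes of the partner, MuvB, MYB, Polycomb, RB kinase and apoptosis lists, none changed sign with a pseudocount of 10, the median of ratios or equal totals. This outcome was fixed in advance, as an added 10 cannot change a sign. The library factors of these scalings (0.872 to 1.11 and 0.967 to 1.07) are too small to reverse a 2-fold change. The genes outside the 10 were recomputed as an addition chosen after seeing the data, and the G1/S and G2/M genes only as counts and medians. Of the recomputed counts of members and of G1/S and G2/M genes, 244 stayed within 1.5 times the main count and 10 did not. The alternative filters could not move these counts, because all of these genes pass each filter used. A count that stayed the same under another filter is therefore no test of its stability, and the 244 cannot be read as such. With a pseudocount of 10, the members that fell on adding JQ1 to lapatinib in BT474m1 went from 2 to 0, and the G2/M genes from 1 to 0. The members with a difference of -1 or lower between adding JQ1 with and without lapatinib in SKBR-3 went from 7 to 3, and those at least 2-fold apart between the lines went from 4 to 2 with lapatinib and from 1 to 0 with JQ1. With the median of ratios, the G2/M genes lowered by JQ1 in SKBR-3 went from 4 to 1. With equal totals, the members lowered by JQ1 in SKBR-3 went from 1 to 2, and those apart between the lines with JQ1 from 1 to 0. With an interval of the difference that leaves out 0, those apart between the lines with both drugs went from 4 to 2 against DMSO and from 6 to 3 against JQ1. Of the single calls of members, 3 ended with a pseudocount of 10 and 1 with the median of ratios, and 2 began with equal totals. The causes were not tested. Of 110 log2 changes of members, 24 left their interval with a pseudocount of 10, 6 with the median of ratios and 5 with equal totals.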
